A study of Mus musculus with 34 samples.

Results

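The genes described here encode the proteins of the cytosolic ribosome. They were chosen by symbol alone: all genes named Rpl or Rps followed by a number, with the stalk genes Rplp0, Rplp1 and Rplp2 and the laminin receptor gene Rpsa, and without the S6 kinases. The rule found 84 genes among the 19798 genes tested, and all 84 passed the filter on dim probes. They comprise 43 genes of the large 60S subunit, 3 genes of its acidic stalk, 31 genes of the small 40S subunit and 6 paralogs (Rpl3l, Rpl7l1, Rpl22l1, Rpl36al, Rpl39l and Rps27l). The last symbol, Rps19bp1, fits the letters of the rule but encodes a binding partner of Rps19 and not a ribosomal protein.

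A cytosolic ribosome contains 1 copy of nearly every one of these proteins together with the ribosomal RNAs. Most of the mRNAs begin with a run of pyrimidines, the terminal oligopyrimidine (TOP) motif, through which mTOR and the RNA-binding protein Larp1 control their translation as a group. A few subunits have paralogs with restricted expression. Rpl3l replaces Rpl3 in heart and skeletal muscle, and Rpl39l is best known from the testis.

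Hearts came from female C57BL/6 mice that were 5 to 6 weeks old on arrival. Exposed mice received 162 µg of Printex 90 carbon black nanoparticles in 40 µl by intratracheal instillation. Control mice received the vehicle, saline (0.9% NaCl) with 10% cell-free lavage fluid of C57BL/6 mice, so instillation and lavage fluid were shared by both arms. Hearts were taken after 1, 3 or 28 days, with 6, 5 and 5 carbon black arrays and 6 control arrays at each day, 1 mouse per array. Each RNA came from a randomly taken piece of heart with tissue of both ventricles, and no genetic change or cell sort was involved.

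RNA of each heart (200 ng, Cy5) was hybridised against Universal Mouse Reference RNA (Cy3), a commercial mixture, always with the dyes in this orientation. A value is therefore a log2 ratio of heart over that mixture, and 0 means equal signal. Between 42.8% and 66.6% of spots per array were well above background in the heart channel. All 12 cardiomyocyte markers looked at were well above background on all 34 arrays. So were all fibroblast, endothelial and smooth muscle and pericyte markers and 7 of 8 macrophage markers. The same held for 4 of 6 proliferating cell, 2 of 3 erythroid, 3 of 6 atrial and 3 of 8 adipocyte markers. For lymphocyte markers the count was 2 of 7, for liver 2 of 7 and for airway 0 of 4. Atrial marker scores were far below the rest on 4 arrays (between -4.28 and -3.91) and at -2.23 on 1 more. Liver marker scores were above 2 in 1 carbon black heart (2.22) and 3 control hearts (2.02 to 3.45), all of day 3. The RNA of a heart section does not separate fewer cells of a type from less RNA per cell.

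The starts of the genes are shown because the TOP motif is known as a mark of the family. Of the 84 genes, 64 had a promoter in the RefSeq table (GRCm38.p6), with 76 annotated starts between them. A start was counted as TOP when its first base was C and at least the next 4 were C or T. This held for 13 of the 76 starts (17.1%), against 2.51% of all 32851 promoters in the table. The letters CCGGAAG, searched on both strands in the window of 250 bases before to 50 after the start as the core bound by ETS factors such as Gabpa, were found in 27 of 76 (35.5%), against 8.86% of all promoters and 15.4% of those of the other genes tested. Annotated starts can lie some bases away from the true start, and a match is a description of letters only. The following windows run from 10 bases before to 20 bases into the transcript, with the pyrimidine run at the start in capitals where the definition was met. The first 5 are ribosomal protein genes met again below, shown because they hold the run. The last 3 are paralogs, which lack it, as do most annotated starts of the family, among them those of Rpl39 and Rpl22.
Rps6 (chr4:86857348-86857377, minus strand): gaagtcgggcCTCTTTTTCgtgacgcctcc
Rpl28 (chr7:4792955-4792984, plus strand): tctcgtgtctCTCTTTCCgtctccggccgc
Rps15a (chr7:118116128-118116157, minus strand): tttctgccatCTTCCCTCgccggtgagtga
Rps18 (chr17:33955646-33955675, minus strand): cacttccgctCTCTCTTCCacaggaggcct
Rpl38 (chr11:114668570-114668599, plus strand): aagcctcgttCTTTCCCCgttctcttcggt
Rpl3l (chr17:24727816-24727845, plus strand): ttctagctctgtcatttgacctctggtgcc
Rpl39l (chr16:10170218-10170247, plus strand): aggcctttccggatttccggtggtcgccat
Rpl7l1 (chr17:46782637-46782666, minus strand): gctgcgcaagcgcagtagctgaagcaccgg

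Nearly the whole family gave less signal in heart than in the mixed reference RNA. In control hearts 82 of the 84 genes were below 0, with a median log2 ratio of -1.08. By comparison, 45.5% of all genes tested were below 0 (median 0.06). Among the 290 genes at least as bright in the heart channel as the median ribosomal protein gene, 29.7% were below 0 (median 1.71). Choosing genes by heart signal itself favours ratios above 0, and the 290 include the brighter genes of the family. The 76 mitochondrial ribosomal protein genes, which serve the separate ribosome of the mitochondrion, stood on the other side, with 28.9% below 0 and a median of 0.35. The 51 measured genes of ribosome biogenesis stood with the cytosolic family (50 of 51 below 0, median -0.83). By subunit the median was -1.15 for the 46 genes of the 60S subunit and stalk and -1.02 for the 31 genes of the 40S subunit. Under median centring the family's median was -2.11 (83 of 84 below 0) and that of all genes -0.36. Since the dyes were never swapped, tissue and dye cannot be told apart in these levels.

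**Figure D1:**
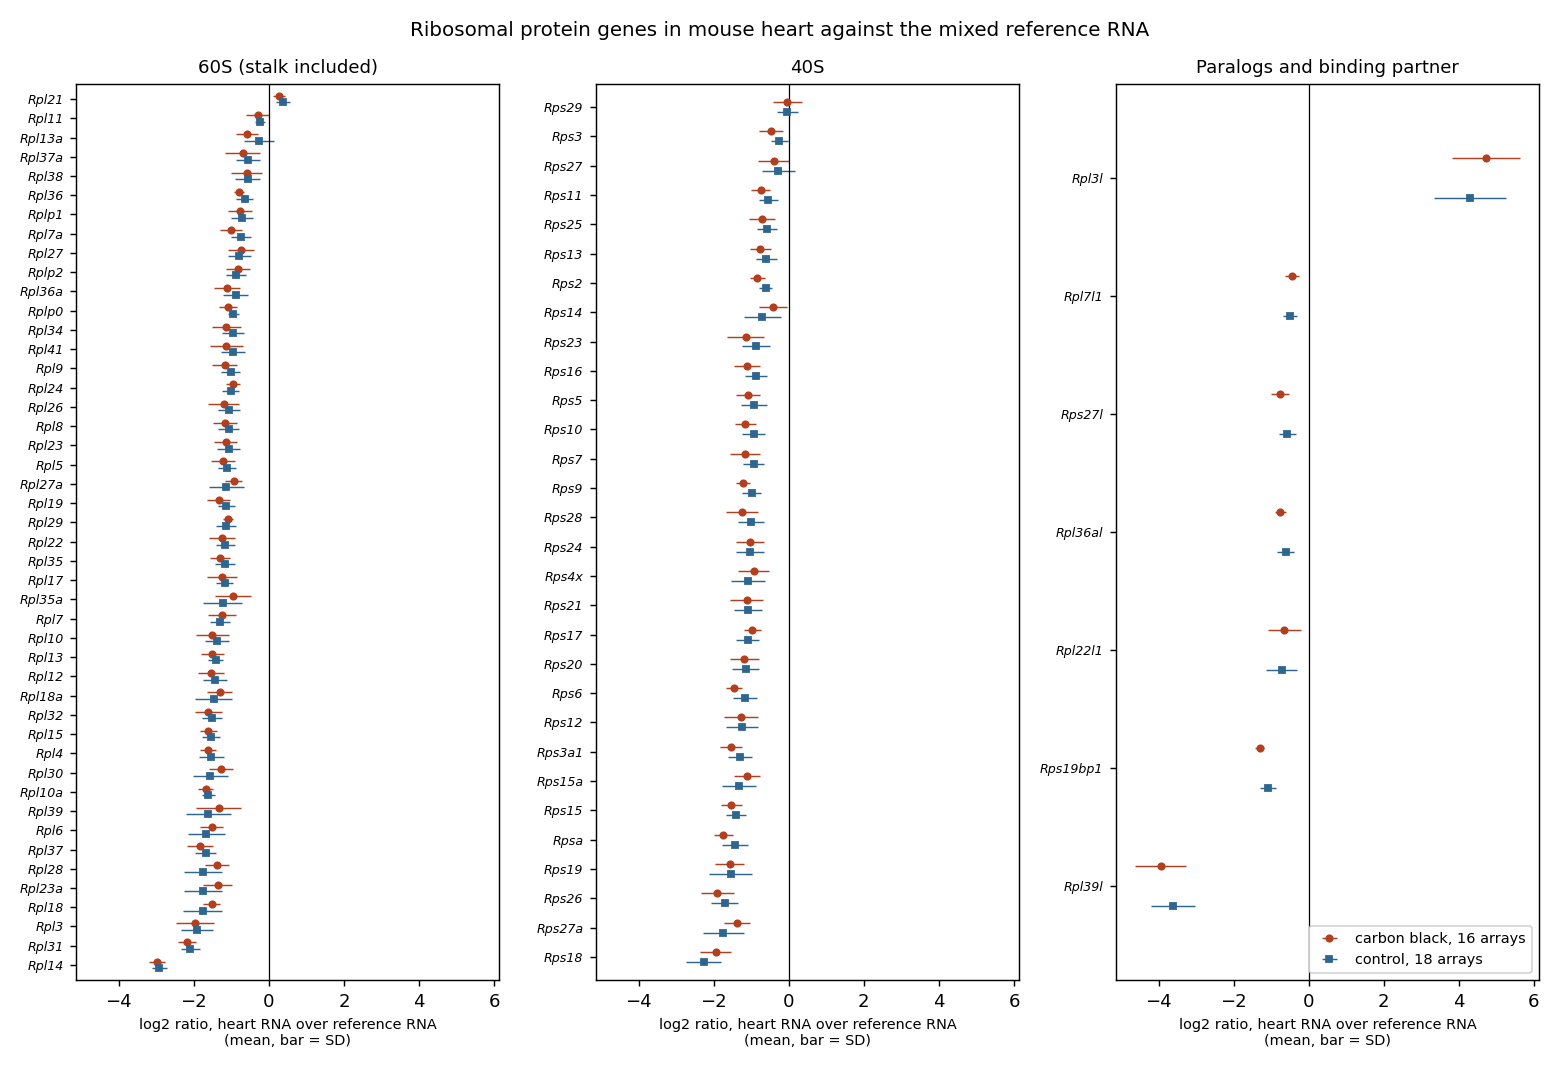
Mean log2 ratio of heart over reference RNA for 83 of the ribosomal protein genes, in carbon black hearts (circles, 16 arrays) and control hearts (squares, 18 arrays), with the SD as bars and genes ordered by the control mean. Control means lie left of 0 for 81 of the 83 genes, and the 2 genes right of 0 are Rpl3l at 4.30 and Rpl21 at 0.37.

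Rpl3l, the striated muscle form of Rpl3, was the gene of the family furthest above the reference. Its log2 ratio averaged 4.73 ± 0.90 in carbon black hearts (SD, n = 16) and 4.30 ± 0.96 in control hearts (SD, n = 18), which for the controls is 19.7-fold over the reference. The control mean was 3.52 under median centring and 5.29 with processed signals. Only 128 of the 19798 genes had a higher mean ratio in controls. Its parent Rpl3, a core protein at the peptidyl transferase centre, averaged -1.97 ± 0.50 in carbon black hearts and -1.91 ± 0.43 in control hearts. Beyond Rpl3l, Rpl21 was the other gene above the reference, at 0.28 ± 0.16 in carbon black hearts and 0.37 ± 0.19 in control hearts, and it lay at -0.11 in controls when arrays were centred on their median instead of by loess.

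At the other end stood Rpl39l, with -3.94 ± 0.68 in carbon black hearts and -3.62 ± 0.58 in control hearts. It was well above background on 31 of 34 arrays, against all 34 arrays for each of the other genes. Its parent Rpl39 averaged -1.34 ± 0.59 in carbon black hearts and -1.62 ± 0.60 in control hearts. Next lowest were Rpl14, at -2.99 ± 0.21 in carbon black hearts and -2.92 ± 0.20 in control hearts, Rps18, at -1.95 ± 0.40 in carbon black hearts and -2.27 ± 0.47 in control hearts, and Rpl31, at -2.19 ± 0.24 in carbon black hearts and -2.10 ± 0.25 in control hearts. The dimmer probe of Rpl31 averaged -0.73 in control hearts and that of Rps18 -1.97, so these ranks hold for the brightest probe of each gene. The highest values after Rpl3l and Rpl21 were those of Rps29 (-0.04 ± 0.39 in carbon black hearts, -0.04 ± 0.27 in control hearts) and Rpl11 (-0.30 ± 0.30 in carbon black hearts, -0.24 ± 0.14 in control hearts), a 60S protein that also binds the p53 regulator Mdm2. For Rps29 the spread between hearts included 0.

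The other 4 paralogs and their parents are given side by side; ratios of different probes do not say which gene of a pair is the more abundant. Rpl22l1, a paralog of the RNA-binding protein Rpl22, averaged -0.64 ± 0.43 in carbon black hearts and -0.72 ± 0.41 in control hearts, and Rpl22 itself -1.25 ± 0.34 in carbon black hearts and -1.16 ± 0.25 in control hearts. Rps27l, known as a p53 target gene, averaged -0.76 ± 0.23 in carbon black hearts and -0.57 ± 0.23 in control hearts, and Rps27 -0.40 ± 0.41 in carbon black hearts and -0.28 ± 0.44 in control hearts. Rpl36al averaged -0.75 ± 0.15 in carbon black hearts and -0.62 ± 0.21 in control hearts, and Rpl36a -1.12 ± 0.34 in carbon black hearts and -0.88 ± 0.33 in control hearts. Rpl7l1 averaged -0.45 ± 0.19 in carbon black hearts and -0.50 ± 0.19 in control hearts, and Rpl7 -1.26 ± 0.37 in carbon black hearts and -1.30 ± 0.27 in control hearts.

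**Figure D2:**
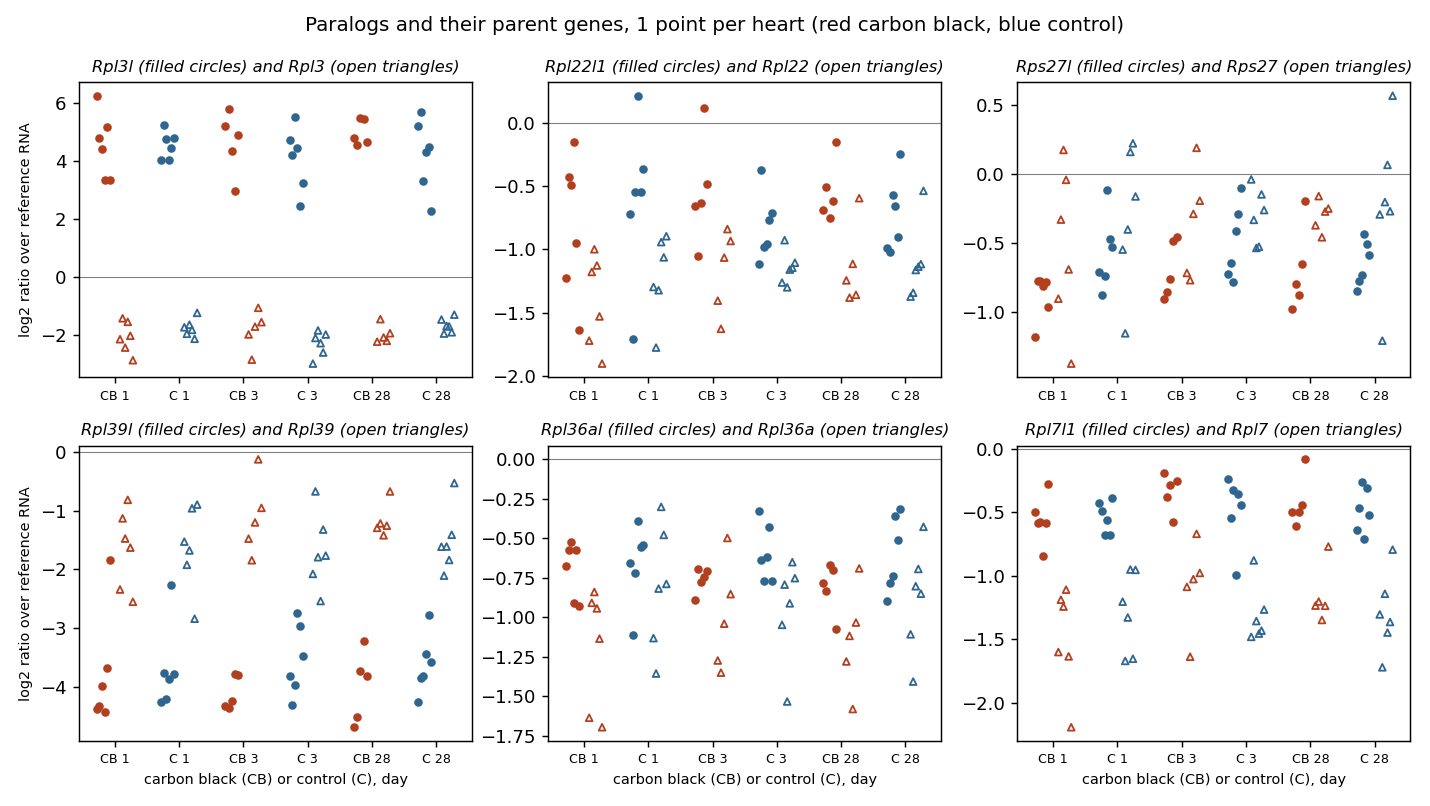
Log2 ratio over the reference RNA of the 6 paralogs (filled circles) and their parent genes (open triangles), 1 point per heart, for carbon black (CB, red) and control (C, blue) hearts at days 1, 3 and 28. Rpl3l lies above 2 and Rpl3 below -1 on all arrays, and Rpl39l lies between -4.68 and -1.84.

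The first comparison asked what had changed in the heart 1 day after the instillation. Of the 84 genes, 71 had a lower mean in carbon black hearts and 13 a higher one, with a median log2 change of -0.22 under loess scaling, which turned to 0.35 under median centring. The median of all genes tested was -0.00 under loess. None of the 84 passed the threshold (adjusted p under 0.05, limma with Benjamini-Hochberg adjustment over all genes), and 0% of all genes did. At an unadjusted p under 0.05 there were 18 genes, all 18 of them lower; over all genes 7.2% met that p, 3.88% with a lower and 3.32% with a higher mean. The counts were 38 lower of 46 for the 60S subunit with its stalk and 26 lower of 31 for the 40S subunit.

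Rps2, a protein at the mRNA entry channel of the small subunit, had the smallest p. Its log2 ratios at day 1 were -1.06, -0.85, -0.84, -1.26, -0.89 and -1.11 in carbon black hearts, against -0.85, -0.59, -0.61, -0.48, -0.16 and -0.79 in control hearts. All 6 exposed hearts were below the control mean, and 1 control heart (-0.85) lay within the exposed range. The change was -0.42 ± 0.11 (SE), with limma's adjusted p = 0.397. Next came Rpl7a, a 60S protein (-0.49 ± 0.16, limma's adjusted p = 0.517), Rpl19 (-0.39 ± 0.15, adjusted p = 0.599) and Rps23, which lies at the decoding site (-0.62 ± 0.24, adjusted p = 0.599). The stalk base protein Rplp0 differed by -0.29 ± 0.12 (limma's adjusted p = 0.626) and Rps28 by -0.51 ± 0.22 (adjusted p = 0.64). None of the 84 genes had groups that did not overlap at day 1, while 0.369% of all genes did.

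The difference at day 1 lay in part of the hearts. The median over the 84 genes of the deviation from each gene's own mean, taken as a score per heart, was -0.47, 0.05, 0.02, 0.07, -0.20 and -0.69 in carbon black hearts, against -0.05, -0.34, -0.00, 0.32, 0.14 and 0.25 in control hearts. Replicates 1 and 6 of the carbon black group were thus the lowest of all 34 hearts, and the other 4 carbon black hearts of day 1 lay within the control range of that day. Without these 2 hearts, an exclusion chosen after seeing the data, the median change was -0.08, with 51 of 84 genes lower and 2 genes at an unadjusted p under 0.05. In the 4 slides that held 1 heart of each arm at day 1, the median difference was -0.40, 0.39, 0.08 and -0.54.

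The sign of the day 1 difference also depended on how arrays were scaled. With each array centred on its median in place of loess, the median change of the 84 genes was 0.35, with none of the 84 below 0, and that of all genes was 0.21. The score of carbon black replicate 6 was then 0.77 in place of -0.69. With no background correction, Agilent's processed signals and the authors' deposited value table the medians were -0.16, -0.14 and -0.14. The family is bright, with a median brightness percentile of 98.6 among the genes tested, and loess adjusts by brightness; its part in the result was not tested.

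**Figure D3:**
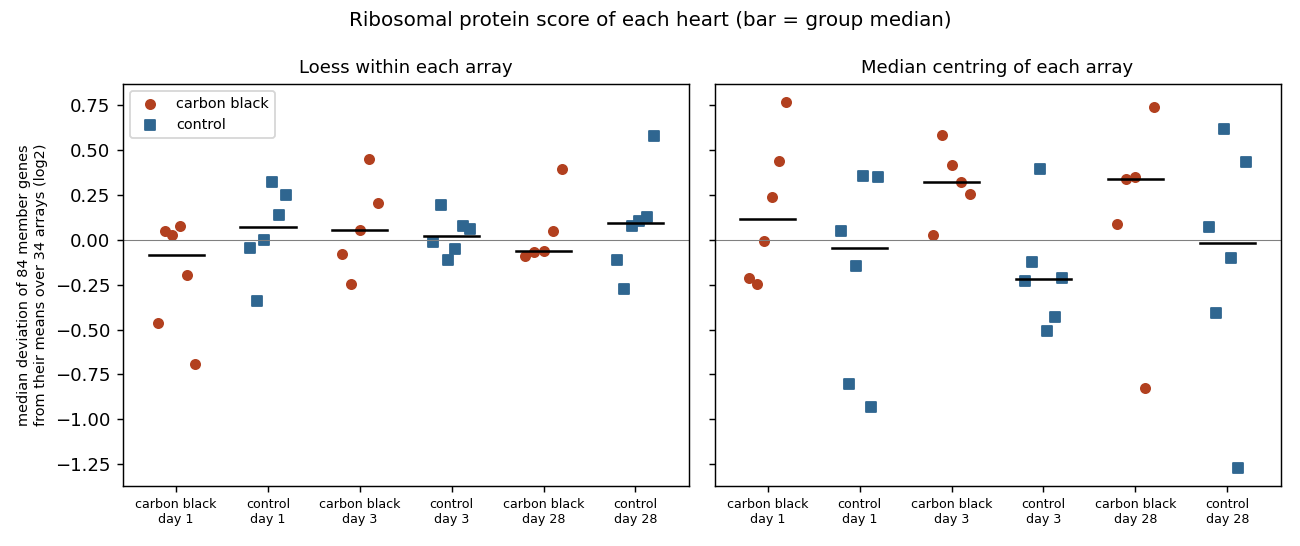
Median deviation of the 84 genes from their means over 34 arrays, on a log2 scale, 1 point per heart, with bars at group medians, for loess (left) and median centring (right). With loess the carbon black group of day 1 reaches down to -0.69, and with median centring the same heart has the highest score of its group, 0.77.

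Markers of several other cell types also had lower means at day 1. All 10 fibroblast markers had lower means in carbon black hearts than in control hearts (median log2 change -0.88), as had all 8 endothelial (-0.43), all 7 smooth muscle and pericyte (-0.60) and all 8 macrophage markers (-0.56). Their scores ran from -2.18 to -0.04 in carbon black hearts and from -0.92 to 0.57 in control hearts for fibroblasts, and for macrophages from -1.60 to 0.22 in carbon black hearts and from -0.41 to 0.30 in control hearts. None of these markers passed the threshold. Carbon black replicate 6 had the lowest score of its group for each of these cell types. Its endothelial score was -2.26, and the other carbon black hearts of day 1 ran from -0.15 to 0.20. Those lay within the control range of -0.38 to 0.27. Smooth muscle and pericyte scores ran from -2.15 to 0.09 in carbon black hearts and from -1.42 to 0.51 in control hearts. Of the 12 cardiomyocyte markers, 8 were higher and 4 lower (median 0.04), and of 7 lymphocyte markers 6 were higher (median 0.27). Lower means were found for 6 of 7 liver markers (median -0.74) and 6 of 8 adipocyte markers (-0.26). The part of these cells in the ribosomal protein result was not tested.

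At day 3 the family split around 0 under loess. Of the 84 genes, 46 had a higher and 38 a lower mean in carbon black hearts, with a median of 0.02, the same as the median of all genes (0.02). Under median centring the median was 0.48 (0.29 for all genes), with 1 of the 84 below 0. With 1 array left out it ran from -0.05 to 0.12 under loess. None passed the threshold (0% of all genes did), and 7 had an unadjusted p under 0.05 (8.33%, against 11.1% of all genes). Over all genes 6.98% were higher and 4.1% lower at that p. All 7 were higher: Rpl23a, Rpl27a, Rpl28, Rps14, Rps15a, Rps18 and Rps27a. None had groups that did not overlap, against 0.894% of all genes.

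Rpl23a, a 60S protein at the exit of the nascent chain, had the smallest p at day 3. It measured -1.31, -1.59, -1.20, -0.92 and -1.09 in carbon black hearts, against -2.85, -1.44, -1.51, -2.12, -1.73 and -2.30 in control hearts. A spread of the controls from -2.85 to -1.44 met a narrow exposed group, of which 1 heart lay inside the control range at -1.59. The change was 0.77 ± 0.26, with limma's adjusted p = 0.347. Rps14, a 40S protein whose loss causes anaemia in human 5q- syndrome, differed by 0.68 ± 0.26 (limma's adjusted p = 0.347). Its values ran from -0.68 to 0.32 (median -0.20) in carbon black hearts and from -1.48 to -0.22 (median -0.98) in control hearts. Rpl28 differed by 0.67 ± 0.25, Rps18 by 0.67 ± 0.25 and Rps15a by 0.63 ± 0.24, with adjusted p between 0.347 and 0.349, and Rpl27a by 0.55 ± 0.21 (limma's adjusted p = 0.352). The lowest control heart for Rps15a (-2.72) stood apart from the other 5, the lowest of which was at -1.66. That heart, control replicate 1 of day 3, was also the lowest control of its day for Rpl23a, Rpl28, Rps18 and Rpl27a. Without it 3 genes had an unadjusted p under 0.05 (lowest adjusted p = 0.652, limma), and Rps15a differed by 0.40 and Rpl27a by 0.33.

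At day 3, 11 of 12 cardiomyocyte markers (median 0.49) and all 8 adipocyte markers (median 0.86) had higher means in carbon black hearts. All 6 markers of proliferating cells (median -0.33) and 3 of 4 airway markers (median -1.68) had lower ones. Airway scores ran from -0.02 to 1.12 in carbon black hearts and from -0.15 to 4.10 in control hearts, the last in control replicate 1. The part of these cells in the day 3 differences was not tested.

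At day 28, 1 gene had an unadjusted p under 0.05. Of the 84 genes, 55 had a lower and 29 a higher mean in carbon black hearts, and the median was -0.03 under loess (0.01 for all genes). It was 0.24 under median centring (0.08 for all genes), and from -0.13 to 0.06 with 1 array left out. None passed the threshold (0% of all genes did), and the 1 gene made up 1.19%, against 2.99% of all genes (1.4% lower and 1.58% higher). That gene was Rpsa, which encodes both a 40S protein and the laminin receptor precursor. It ran from -2.20 to -1.46 (median -1.81) in carbon black hearts and from -1.83 to -0.81 (median -1.19) in control hearts. The groups overlapped, and the difference was -0.47 ± 0.19 (limma's adjusted p = 1). The dimmer probe of Rpsa differed by 0.03 ± 0.14 at that day. Rps6, the S6 kinase substrate of the small subunit, differed by -0.32 ± 0.17, Rpl4 by -0.29 ± 0.16, Rps19bp1 by -0.23 ± 0.12, Rps9 by -0.21 ± 0.14 and Rpl36al by -0.21 ± 0.12, all with limma's adjusted p = 1. Under median centring Rps9 (0.05) and Rpl36al (0.02) were above 0. None had groups that did not overlap, against 0.389% of all genes.

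Averaged over the 3 days, with equal weight for each day, no gene of the family passed either, while 386 of all genes did (1.95%). The family had 59 lower and 25 higher means and a median of -0.09 under loess (0.35 under median centring), against 0.00 for all genes. Without carbon black replicates 1 and 6 of day 1 the median was -0.04, with 49 lower means. At an unadjusted p under 0.05 there were 23 genes (27.4%, against 18.3% of all genes), 17 of them lower (7.5% of all genes were lower at that p) and 6 higher (10.8% of all genes). By subunit these were 13 of 31 genes of the 40S subunit and 8 of 46 of the 60S subunit with its stalk. The difference between subunits was not tested.

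Under loess Rps2 came nearest to the threshold, with a change of -0.22 ± 0.06 and limma's adjusted p = 0.0606, and 13 of 16 exposed hearts were below the control mean of their day. Rps19bp1 was close behind, at -0.22 ± 0.07 (limma's adjusted p = 0.0645), and all 16 exposed hearts were below the control mean of their day. It averaged -1.30 ± 0.12 in carbon black hearts (SD, n = 16) and -1.08 ± 0.22 in control hearts (SD, n = 18). Rps9, another 40S protein, differed by -0.23 ± 0.08 (adjusted p = 0.102, limma), Rps6 by -0.28 ± 0.10 (adjusted p = 0.115, limma) and Rpsa by -0.30 ± 0.11 (adjusted p = 0.118, limma), with 14, 15 and 15 of 16 exposed hearts below the control mean. Rpl23a pointed the other way, at 0.41 ± 0.15 (limma's adjusted p = 0.117), with 15 of 16 exposed hearts above the control mean.

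Median centring turned Rps2, Rps19bp1, Rps9, Rps6 and Rpsa to values above 0, from 0.10 to 0.26. The family's median was 0.35 and the all-gene median 0.19 under that scaling, and 6 genes passed: Rpl23a, Rpl28, Rpl30, Rps14, Rps18 and Rps27a, all higher. Agilent's processed signals gave -0.03 for Rpl23a and 0.01 for Rps2. Over loess, median centring, no background correction, processed signals and the authors' table, 15 of the 84 genes kept 1 sign in the mean of the 3 days, 14 of them higher (among these Rpl3l, Rpl30, Rpl35a, Rpl39 and Rps27a) and 1 lower (Rpl39l). At day 1 that held for 3 genes, Rpl18, Rpl24 and Rpl28, all higher. At day 3 it held for 40 genes, 39 higher and 1 lower (Rpl39l), and at day 28 for 26 genes, 18 higher and 8 lower. Under median centring the median of all genes was itself above 0 in these comparisons, which favours higher signs. These counts therefore do not show that the family rose, and the share over all genes was not computed.

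**Figure D4:**
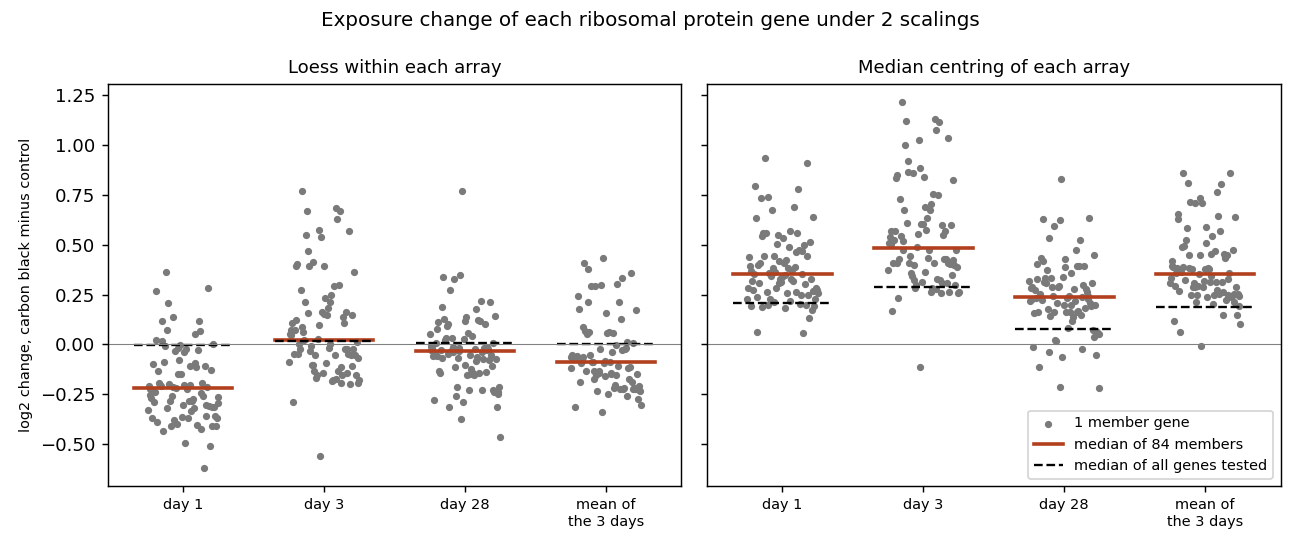
Log2 change, carbon black minus control, of each of the 84 genes at day 1, 3 and 28 and in the mean of the 3 days, under loess (left) and median centring (right), with the median of the family (red) and of all genes tested (dashed). The red line at day 1 is at -0.22 under loess and at 0.35 under median centring.

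Genes commonly used as PCR standards were looked at by name. Rpl13a differed by -0.31 ± 0.12 in the mean of the 3 days (limma's adjusted p = 0.164), and 15 of 16 exposed hearts were below the control mean of their day. Rps18 differed by 0.33 ± 0.14 (limma's adjusted p = 0.201), with 13 of 16 exposed hearts above it. Rplp0 differed by -0.14 ± 0.07 (adjusted p = 0.265, limma), with a 95% interval from -0.28 to -0.00. None passed the threshold, and the 3 did not share a sign under loess. Under median centring the values were 0.12 for Rpl13a, 0.81 for Rps18, which passed, and 0.34 for Rplp0. Rpl13a was then above 0 but below the median of all genes, which that scaling also put above 0. With processed signals Rps18 was at -0.05 and Rplp0 at 0.02. The other stalk genes gave -0.04 ± 0.10 for Rplp1 and 0.06 ± 0.10 for Rplp2.

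The paralogs gave no call in any comparison. Rpl3l differed by -0.00 ± 0.54 at day 1, 0.54 ± 0.56 at day 3 and 0.77 ± 0.56 at day 28, and by 0.44 ± 0.32 in the mean of the 3 days (limma's adjusted p = 0.509), with a 95% interval from -0.22 to 1.09. All 12 cardiomyocyte markers also had higher means in carbon black hearts over the 3 days (median 0.19, 1 passing), and their part in the Rpl3l difference was not tested. Rpl3l ran at day 28 from 4.56 to 5.48 (median 4.79) in carbon black hearts and from 2.27 to 5.69 (median 4.41) in control hearts, so the exposed hearts lay inside the wider control range. Rpl3 differed by -0.05 ± 0.14 in the mean of the 3 days. Rps27l differed by -0.19 ± 0.08 (limma's adjusted p = 0.206) with 13 of 16 exposed hearts below the control mean, Rpl36al by -0.14 ± 0.07 (adjusted p = 0.274, limma), Rpl39l by -0.34 ± 0.22 (adjusted p = 0.436, limma), Rpl22l1 by 0.09 ± 0.14 and Rpl7l1 by 0.06 ± 0.07. Under median centring Rpl3 (0.38), Rps27l (0.24) and Rpl36al (0.25) turned to values above 0, and processed signals put Rpl7l1 below 0.

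Whether the exposure effect differed between days was tested for each gene with an F test in the same fit. None of the 84 genes passed (0% of all genes did; lowest adjusted p = 1, limma), and none had an unadjusted p under 0.05, against 0.995% of all genes. The smallest unadjusted values were those of Rpl3 (0.0534), Rps2 (0.0713) and Rps15a (0.0832), followed by Rpl5, Rpl4 and Rpl27a. Rpl3 differed by -0.32 ± 0.24 at day 1, 0.47 ± 0.25 at day 3 and -0.31 ± 0.25 at day 28.

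Within the carbon black arm most means of the family were higher at the later days than at day 1, without passing the threshold. From day 1 to day 3 the change was above 0 for 82 of 84 genes, with a median of 0.25 (0.02 for all genes). None passed (0% of all genes did), and 8 had an unadjusted p under 0.05, all higher (9.52%, against 5.43% of all genes, 3.57% higher and 1.86% lower). The genes of smallest p were Rpl9 (0.42 ± 0.17, limma's adjusted p = 0.827), Rpl19 (0.37 ± 0.16), Rpl10a (0.26 ± 0.11), Rpl5, which carries 5S ribosomal RNA (0.36 ± 0.16), Rpl7 (0.41 ± 0.19) and Rpl26 (0.45 ± 0.21). From day 1 to day 28 the change was above 0 for 77 genes (median 0.24), none passed (0% of all genes did), and Rps2 was the 1 gene at an unadjusted p under 0.05 (0.26 ± 0.11), against 4.28% of all genes. From day 3 to day 28 the median was -0.03, with no gene passing (0% of all genes did) or under that p, against 1.37% of all genes; the smallest p belonged to Rpl10a (-0.15 ± 0.12).

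Under loess the starting group of these changes held carbon black replicates 1 and 6 of day 1, the lowest of all 34 hearts. Under median centring replicate 6 had the highest score of its group (0.77). Without these 2 hearts, the median change was 0.08 for day 3 over day 1, with 21 genes below 0. For day 28 over day 1 it was 0.06, with 34 below 0. The exclusion was chosen after seeing the data, and leaving out the lowest starting hearts by itself makes such changes smaller. Median centring put the change to day 28 at -0.03. From day 1 to day 3 all 10 fibroblast (median 0.95), all 8 macrophage (0.52), all 8 adipocyte (1.16) and all 7 liver markers (0.93) had higher means at the later day. From day 1 to day 28 so had all 10 fibroblast (0.59) and all 8 macrophage markers (0.55). The part of these cells in the changes was not tested.

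In control hearts the family's medians stayed near 0 between the days, at -0.04 for day 3 over day 1, 0.04 for day 28 over day 1 and 0.07 for day 28 over day 3. None of the 84 genes passed in any of the 3 comparisons (0% of all genes did in each). At an unadjusted p under 0.05 stood Rpl3 for day 3 over day 1 (2.04% of all genes), no gene for day 28 over day 1 (1.18% of all genes), and Rpl3 and Rpl4 for day 28 over day 3 (4.43% of all genes). Rpl3 gave the smallest p in the first and last. Its change was -0.55 ± 0.24 for day 3 over day 1 and 0.63 ± 0.24 for day 28 over day 3 (limma's adjusted p = 0.999 for each), with control means of -1.75, -2.30 and -1.67 at days 1, 3 and 28. Control replicate 1 of day 3 had the lowest Rpl3 of its day (-2.99). Without it the Rpl3 changes were -0.41 and 0.49, and no gene of the 84 had an unadjusted p under 0.05 in either comparison. All 4 airway markers were higher at day 3 than at day 1 (median 1.72) and lower at day 28 than at day 3 (-1.81), as were all 7 liver markers in the last comparison (-1.65). The part of these cells was not tested. For day 28 over day 1 the smallest p belonged to Rpl28 (0.34 ± 0.24) and Rps27a (0.36 ± 0.28).

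From heart to heart most of the family varied together. After group means were removed, the median correlation between 2 genes was 0.53 over the 34 arrays, as a description of values that share array, scaling and probe brightness. It was 0.84 under median centring, 0.46 without background correction, 0.59 with processed signals and 0.37 in the authors' deposited table. With the median of the others, 38 genes correlated above 0.8, 30 from 0.5 to 0.8, 12 from 0 to 0.5 and 4 below 0. The closest were Rpl12 (0.96), Rpl38 (0.95), Rpl9 (0.94) and Rpl34 (0.94). The 4 below 0 were Rpl3l (-0.55), Rpl21 (-0.24), Rpl7l1 (-0.16) and Rpl39l (-0.09); under median centring they were at 0.11, 0.54, 0.85 and 0.29 and none of the 84 lay below 0. In the other 4 settings Rpl39l was above 0, while Rpl3l, Rpl21 and Rpl7l1 were below 0 in all but median centring, and Rps2 was below 0 without background correction and in the authors' deposited table. Correlation was no higher within the 60S (0.57) or the 40S subunit (0.58) than between them (0.58). The 13 genes with a TOP start had a median of 0.73, against 0.78 for the 51 others with a promoter in the table.

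Outside the family, the named genes whose deviations followed it most closely were Rack1 (r = 0.94), which sits on the 40S head, Snrpg (0.90), Son (0.87), S100a4 (0.86), Fau (0.85), whose product is cleaved to the 40S protein eS30, and Eef1a1 (0.85), the translation elongation factor. Rack1 and Fau are ribosomal proteins that the symbol rule does not reach. The lowest were Paip1, which binds the poly(A)-binding protein (-0.85), Gramd1b (-0.84), Ak4 (-0.82) and Uaca (-0.80). All are descriptions over the same 34 arrays.

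The score of the family was set against the marker scores. Over 34 arrays, with group means removed, its Pearson correlation was 0.68 with fibroblast markers (Spearman 0.62), 0.67 with adipocyte markers (0.64) and -0.27 with cardiomyocyte markers (-0.40). The other Pearson values were 0.60 for macrophage, 0.58 for atrial, 0.51 for lymphocyte, 0.44 for smooth muscle and pericyte, 0.41 for endothelial, 0.32 for erythroid, 0.26 for liver, 0.07 for airway and -0.23 for proliferating cell markers. With only the family score median centred, and marker scores still under loess, the first 3 Pearson values were 0.22, 0.07 and -0.05. Rpl3l had a different profile, with 0.77 for cardiomyocyte markers (Spearman 0.67), -0.63 for lymphocyte markers (-0.55) and -0.26 for fibroblast markers. With adipocyte markers Rpl3l was at -0.47 (Spearman -0.655). Leaving out the 2 arrays furthest out in the marker score left 0.72 for Rpl3l with cardiomyocytes and 0.56 for the family with fibroblasts. For the family it also left 0.65 with adipocyte, 0.48 with lymphocyte, 0.47 with macrophage and -0.47 with cardiomyocyte markers. The values with atrial (0.38), endothelial (0.24), smooth muscle and pericyte (0.215) and erythroid markers (0.01) were lower than over all arrays. Those with liver (0.34), airway (0.10) and proliferating cell markers (-0.02) were higher. The relations were computed for 12 marker lists and are descriptions with no test.

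Probes to the same gene often disagreed on the direction of the exposure difference. For 29 of the 84 genes more than 1 probe passed the filter, and in the mean of the 3 days the probes of 16 of them (55.2%) had opposite signs; among all 3968 named genes with several probes the share was 50.2%. The median distance between the highest and the lowest probe was 0.21, against 0.14 for all such genes. Rpl36a gave -0.23, 0.30 and -0.09, and Rpl34 gave -0.17 and 0.31, where the first value of each is the brightest probe and the one used. In the same order Rpsa gave -0.30 and 0.11, and Rpl7a gave -0.25, -0.13 and 0.18. Probes were of 1 sign for Rps2 (-0.22 and -0.14), Rps19bp1 (-0.22 and -0.13), Rpl23a (0.41 and 0.08), Rps18 (0.33 and 0.12) and Rpl35a (0.29 and 0.42). Ribosomal protein genes have many processed pseudogenes, and to what extent probes also bind their transcripts was not tested.

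**Figure D5:**
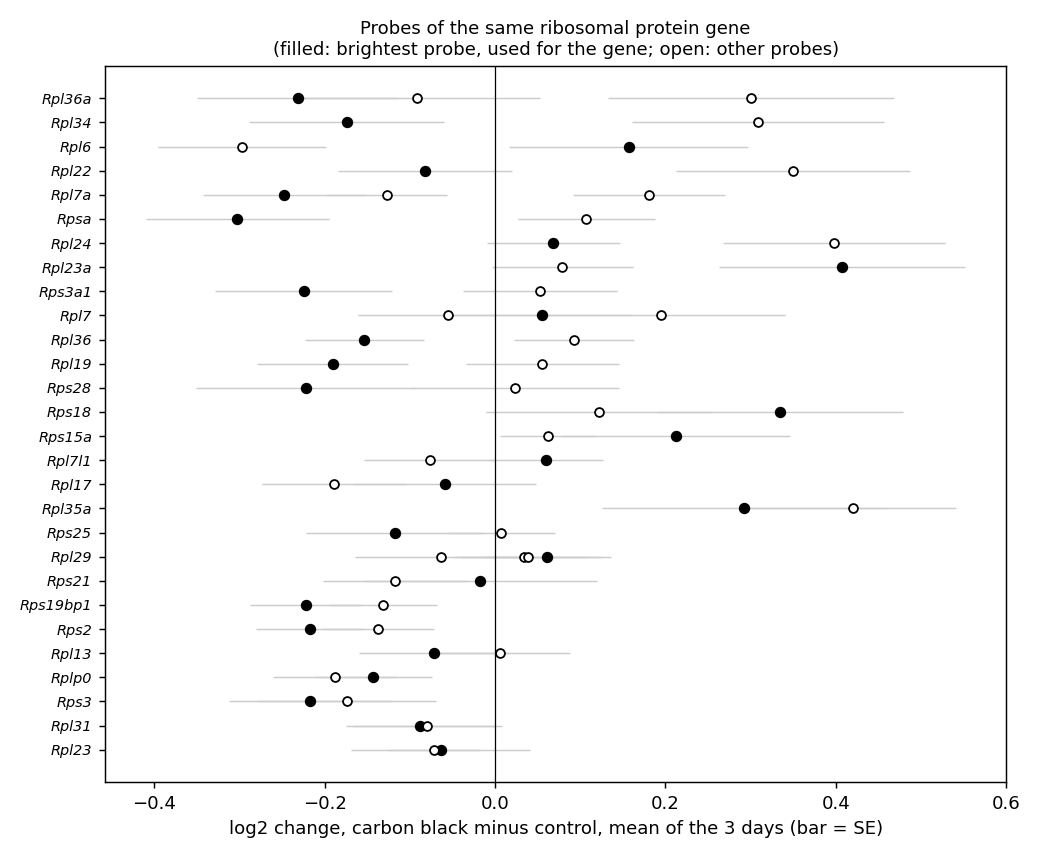
Log2 change, carbon black minus control in the mean of the 3 days, for each probe of 28 genes with several probes passing, with the SE as bars, genes ordered by the distance between probes, and filled points for the brightest probe. The probes of 15 of these genes lie on both sides of 0.

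Genes around the ribosome were described from lists, whose counts stand against 1.95% of all genes passing in the mean of the 3 days. Of the ribosomal proteins outside the symbol rule, Rack1 and Fau did not pass in any comparison of carbon black with control, with -0.08 ± 0.09 for Rack1 and -0.13 ± 0.15 for Fau in the mean of the 3 days. Of 26 other TOP mRNAs and translation factors, 17 had a lower and 9 a higher mean, and 2 passed. The initiation factor subunit Eif3k differed by -0.29 ± 0.07 (limma's adjusted p = 0.0348), with means of -0.15 in carbon black hearts and 0.13 in control hearts. The RNA-binding protein Hnrnpa1 differed by 0.68 ± 0.16 (limma's adjusted p = 0.0357), with means of -1.91 in carbon black hearts and -2.57 in control hearts. Of 51 ribosome biogenesis genes, 33 were lower and 18 higher, and 2 passed, the rRNA methyltransferase Nop2 with -0.25 ± 0.06 (limma's adjusted p = 0.0382) and the assembly factor Rrs1 with 0.50 ± 0.13 (limma's adjusted p = 0.046). Of 20 measured genes that control ribosomal protein expression, 1 passed, the transcription factor Sp1 (0.47 ± 0.13, limma's adjusted p = 0.0491). Of 76 mitochondrial ribosomal protein genes 1 passed, Mrpl55 (0.74 ± 0.20, limma's adjusted p = 0.0474). The calls in these lists come from the loess fit alone. They were not recomputed under median centring, the other settings or with arrays left out. The medians of the 4 larger lists lay between -0.05 and -0.01. At day 1 none of these genes passed, and the TOP mRNAs and translation factors had 20 lower and 6 higher means (median -0.17), the biogenesis genes 24 lower and 27 higher (median 0.01).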

How the data were processed

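Expression was measured in 34 mouse hearts on two-colour Agilent arrays. The deposited scanner files hold spot intensity values, read with Agilent Feature Extraction 10.1.1.1 per the file headers; the deposited value table holds log2 ratios, whose columns (medians -0.055 to -0.034) correlate at 0.995 to 0.998 with ratios computed here by loess when no background was subtracted. No member spot was saturated. From the median signals, limma 3.58.1 removed background by normexp with an offset of 50, and loess then scaled every array separately. R was 4.3.3, with the package data.table at 1.17.8, and figures were drawn by matplotlib 3.10.9 under Python 3.11.15. Control and outlier spots were left out. Probes were kept when well above background in the heart channel on at least 0.5 of the arrays of 1 group, with at most 3 values missing. Genes were named through RefSeq accessions (GRCm38.p6, names and promoter windows only; the array header gives mm8), and the brightest of a gene's probes was used, giving 19798 genes, 12347 of them with a symbol. The fit had 6 group means and 28 residual degrees of freedom, with two-sided tests and Benjamini-Hochberg adjustment over all genes at 0.05. Marker scores are mean deviations of the listed markers from their medians over all arrays. The number of arrays limits the precision. Nothing beyond 1 mouse per array says how animals were housed or processed together.

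Named were all members past the threshold of a comparison, or else the 6 of smallest unadjusted p, the paralogs with their parents, the stalk genes, Rpsa, Rps6, Rpl13a and Rps18, the highest and lowest ratios and correlations, and up to 4 genes per other list. The genes of 1 sign in 5 signal settings, the probe examples and the 7 genes of day 3 were named after their values were seen. The members and lists were chosen with earlier results of these data known. The fit was tested on simulated data. Alternatives were median centring, no background correction, processed signals, the authors' table, slide, scan day or array position as blocks, the mean over probes, other filters on dim probes, and arrays left out. Some single-gene results are not reported here.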

Additional observations from a re-analysis of the deposited data

Results flagged for a closer look

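Of 198 groups of 5 or 6 hearts looked at for 33 quantities, 15 had 1 heart far from the others; chance alone flags about 1 in 20 groups. Rpl39l, the dimmest gene of the family, was high in carbon black replicate 6 of day 1 (-1.84, the others from -4.43 to -3.67) and in control replicate 5 of day 1 (-2.26, the others from -4.26 to -3.77). Carbon black replicate 6 of day 1 also had the lowest Rps14 of its group (-1.48, the others from -0.66 to -0.28), and control replicate 5 of day 1 the lowest Rpl27a (-2.14, the others from -1.11 to -0.68).

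Carbon black replicate 5 of day 28 stood above its group for Rpl39 (-0.67, the others from -1.42 to -1.22), Rpl7 (-0.77, the others from -1.35 to -1.20) and Rps14 (0.043, the others from -0.51 to -0.35). Carbon black replicate 4 of day 3 stood above its group for Rpl13a (-0.0431, the others from -0.77 to -0.60).

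Control replicate 6 of day 28 was high for Rpl22 (-0.54, the others from -1.37 to -1.12) and Rps18 (-1.16, the others from -2.44 to -2.01), and control replicate 2 of day 28, an array of low atrial score, was low for Rps6 (-1.83, the others from -1.10 to -0.71). Among control hearts of day 3, replicate 1 was low for Rps15a (-2.72), replicate 3 low for Rpl19 (-1.42) and replicate 2 high for Rpl7 (-0.88). Control replicate 6 of day 1 was high for Rpl4 (-1.0025). Among the 33 quantities, none had all exposed hearts on one side of the control mean at one day and all on the other side at another day.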

How the results depend on the processing

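No paired analysis was possible because replicate numbers were given in accession order and pair no hearts. Slide, which in 10 cases held 1 heart of each arm of a day, was used as a block instead. No gene of the family passed with slide as a block. None had passed in the main fit, so there was no call to lose. As a fixed block, slide left 15 residual degrees of freedom. In 14 settings and with each of 34 arrays left out, no gene of the family passed at day 1, 3 or 28, in the test between days or between days within an arm. In the mean of the 3 days, 6 passed under median centring, 2 without background correction (Rpl23a and Rps19bp1), 3 in the authors' table (Rpl23a, Rps9 and Rps19bp1) and 3 without the 5 arrays of low atrial score (Rpl13a, Rps6 and Rps19bp1). With 1 array left out, 0 to 3 passed, the 3 (Rps6, Rps9 and Rps19bp1) without control replicate 2 of day 28; without control replicate 3 of day 3 or replicate 6 of day 1 there were 2, and 1 without control replicate 1 or 2 of day 1, control replicate 2 of day 3 or carbon black replicate 3 of day 1. Leaving out 1 array gave a median change of -0.32 to -0.14 at day 1, -0.05 to 0.12 at day 3, -0.13 to 0.06 at day 28 and -0.11 to -0.06 in the mean of the 3 days. Median centring gave 0.35, 0.48, 0.24 and 0.35 for these, and -0.0329 for carbon black hearts from day 1 to day 28; the cause was not tested.

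Of 60 gene values (the genes of smallest p in each comparison, not all 84) recomputed under these settings, 2842 kept their sign and their side of the threshold, 19 passed only in the other setting and 19 changed sign. Signs turned under median centring at day 1 for Rps2 (0.25), Rpl7a (0.18), Rpl19 (0.24), Rps23 (0.0575), Rplp0 (0.38) and Rps28 (0.13), at day 28 for Rpl36al (0.0173) and Rps9 (0.0537), in the mean of the 3 days for Rps2 (0.26), Rps19bp1 (0.15), Rps9 (0.19), Rps6 (0.15) and Rpsa (0.10), and in carbon black hearts from day 1 to day 28 for Rps2 (-0.0396) and Rpl7a (-0.0026). Processed signals turned Rps2 (0.0102) and Rpl23a (-0.0279) in the mean of the 3 days. Slide as a fixed block turned Rpsa in controls from day 1 to day 28 (-0.0448). With 1 array left out, Rpl27a in controls from day 1 to day 3 ranged from -0.3992 to 0.0195, the last without control replicate 1 of day 3. Of 16 carbon black arrays 10 sat at position 4 of a slide, and of 18 control arrays 12 at position 1 and none at 4. For the arrays at position 4, position and exposure cannot be told apart. With position as a block, the arms could be compared directly only at positions 1 to 3, which held 2 carbon black arrays each.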
